A study of Mus musculus with 2 samples.

Results

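The interferon-stimulated genes described here were a list of 37 mouse genes that interferons are known to induce: 4 sensors of foreign nucleic acid, 5 transcription factors, 18 antiviral effectors, 4 genes of the ISG15 and ADP-ribosylation systems, and 6 interferon-inducible GTPases. The list is of gene names and its rule uses no measured value, but it was chosen with earlier results of these data known. Of its genes, 36 of the 37 had a row among the 19320 features of the deposited table. Mx2 was not analysed here. Cells came from dissociated prostate of R26 mTmG/hAR:Osr1-Cre mice. Their Cre recombinase, driven by Osr1, a gene of the embryonic urogenital tissue, switched on a human androgen receptor transgene (hARtg) together with a membrane-bound green fluorescent protein (EGFP here). The labels give 1 library of prostatic intraepithelial neoplasia (PIN) and 1 library of prostatic adenocarcinoma (PCa) with this genotype; both carry the transgene, and no library without it was analysed here. The age and number of the animals behind each library are not in the labels. The study describes older mice for its PCa tissue than for its PIN tissue. The names of the 15742 cells end in either 1 or 2, and these endings are used here as barcode set 1 and barcode set 2. Nothing in the labels or column names links an ending to a tissue, so cells were not assigned to PIN or PCa here. The study's number of PIN cells after filtering equals that of set 1, and its number of PCa cells is close to that of set 2. Groups here come from the labels only.

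Type I interferons (the interferon-alpha and interferon-beta family) signal through the kinases JAK1 and TYK2 to a complex that holds STAT2 and IRF9, which binds the interferon-stimulated response element (ISRE) in the promoters of its targets. Interferon-gamma, made mainly by T cells and natural killer cells, acts through gamma-activated sites (GAS), and the guanylate-binding proteins and the immunity-related GTPases are among its strongest targets. Many interferon-stimulated genes keep a low level without infection, and part of the list encodes the pathway's own parts: the RNA helicases Ddx58 (RIG-I) and Ifih1 (MDA5) sense viral RNA, and Irf7 and Irf9 carry the signal to DNA.

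The promoters of 7 members are shown. Among members with a RefSeq promoter window, these genes stand at the ends of the comparison of barcode sets given below, with Isg15 between them. Zbp1, with the lowest ratio of all members, and Mx1, next after Ddx58 at the upper end, had no window and are not shown. Each line holds the 250 bases before the annotated start, 5′ to 3′ on the gene's strand, from RefSeq on GRCm38.p6, with matches to the ISRE core (GAAANNGAAA, either strand, overlapping matches joined) in capitals.
Gbp2 (chr3:142620413-142620662, plus strand): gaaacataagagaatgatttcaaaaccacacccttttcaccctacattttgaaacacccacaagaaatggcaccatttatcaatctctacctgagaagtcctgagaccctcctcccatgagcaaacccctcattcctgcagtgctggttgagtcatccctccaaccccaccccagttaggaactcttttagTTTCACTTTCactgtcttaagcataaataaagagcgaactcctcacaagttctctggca
Ifit3 (chr19:34583279-34583528, plus strand): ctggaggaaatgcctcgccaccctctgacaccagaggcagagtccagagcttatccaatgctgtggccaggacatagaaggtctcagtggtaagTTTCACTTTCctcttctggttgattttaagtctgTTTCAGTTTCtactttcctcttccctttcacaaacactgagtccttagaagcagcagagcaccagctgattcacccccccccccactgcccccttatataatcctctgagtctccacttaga
Gbp3 (chr3:142559794-142560043, plus strand): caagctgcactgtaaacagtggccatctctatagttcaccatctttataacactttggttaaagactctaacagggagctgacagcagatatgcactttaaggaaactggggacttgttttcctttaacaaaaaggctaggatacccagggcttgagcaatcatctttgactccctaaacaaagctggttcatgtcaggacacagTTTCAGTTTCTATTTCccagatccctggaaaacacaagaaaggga
Isg15 (chr4:156200819-156201068, minus strand): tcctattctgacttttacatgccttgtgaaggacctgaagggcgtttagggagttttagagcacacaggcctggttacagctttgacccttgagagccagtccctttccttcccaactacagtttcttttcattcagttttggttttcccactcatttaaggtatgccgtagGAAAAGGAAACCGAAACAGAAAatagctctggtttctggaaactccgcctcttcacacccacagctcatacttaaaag
Ifih1 (chr2:62646256-62646505, minus strand): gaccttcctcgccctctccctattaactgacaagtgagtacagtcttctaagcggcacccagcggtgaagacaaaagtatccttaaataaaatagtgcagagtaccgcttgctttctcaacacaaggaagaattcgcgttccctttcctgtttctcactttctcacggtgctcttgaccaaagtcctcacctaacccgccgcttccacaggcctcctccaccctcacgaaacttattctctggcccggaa
Ifi35 (chr11:101448162-101448411, plus strand): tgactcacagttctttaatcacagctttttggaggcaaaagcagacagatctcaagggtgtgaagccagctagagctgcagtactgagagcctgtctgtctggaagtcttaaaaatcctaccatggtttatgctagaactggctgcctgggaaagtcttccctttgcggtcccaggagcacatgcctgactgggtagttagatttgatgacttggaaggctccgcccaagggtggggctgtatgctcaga
Ddx58 (chr4:40239826-40240075, minus strand): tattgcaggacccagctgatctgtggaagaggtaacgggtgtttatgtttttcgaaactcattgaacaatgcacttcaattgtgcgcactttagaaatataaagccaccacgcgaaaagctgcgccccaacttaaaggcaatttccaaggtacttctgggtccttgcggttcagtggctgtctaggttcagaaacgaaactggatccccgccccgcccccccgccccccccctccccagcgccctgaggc
Gbp2 and Gbp3 are guanylate-binding proteins, Ifit3 belongs to the IFIT family that binds viral RNA, and Isg15 is a ubiquitin-like modifier. The Gbp2, Ifit3, Gbp3 and Isg15 windows held 1, 2, 2 and 3 matches. The Ifih1, Ifi35 and Ddx58 windows held 0 before the start. Ddx58 and Ifih1 each had a match just past the start, beginning 2 and 32 bases into the transcribed side.

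Of the 37 members, 27 had a promoter window in RefSeq, of 250 bases before and 50 after the start. The ISRE core occurred in 14 of the 27 (51.9%), against 3.99% of all genes with a window, and GAS (TTCNNNGAA, a palindrome) in 8 (29.6%), against 9.55%. Bst2, Gbp7 and Igtp held both. Irf1, Irf8, Ifit2, Samhd1 and Ifi35 held a GAS without an ISRE. Irf7, Irf9, Oasl1, Oasl2, Ifi44, Xaf1, Cmpk2 and Trim25 held neither in this window. With the 250 bases before the start alone, the numbers were 12 (44.4% against 3.46%) and 7 (25.9% against 8.13%). A match describes letters and not binding.

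The deposited values were converted back to unique molecular identifiers (UMIs), each of which marks 1 captured RNA molecule. The median depth was 17235 UMIs over the 6332 cells of set 1 and 14824.5 UMIs over the 9410 cells of set 2. A total of 67 barcode sequences occurred in both sets. After 155 and 175 likely doublets were left out, cells were placed in classes by marker genes that are not members, so classes are named "-like". Luminal-like cells numbered 2445 in set 1 and 7628 in set 2, basal-like cells 1545 and 248, and proximal or urethral luminal-like cells 423 and 126. A further 395 and 101 epithelial cells lay between the basal and luminal gates, 76 basal-like cells of set 1 and 39 of set 2 were close to the basal limit, and 446 and 180 luminal-like cells were close to the proximal limit. Each set is 1 library, so no test between sets or cell groups was possible. Intervals given are exact 95% intervals for counting error only; UMIs of a gene cluster in cells, so they are narrower than the true error.

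The members were highest in stroma and vessels, and lower in epithelium. Summed over the 36 genes, the level was 9599.9 CPM (UMIs scaled to a common library total, as counts per 1e6) in the 38 endothelium-like cells of set 1 and 9105.6 CPM in the 151 of set 2. Smooth muscle or mural-like cells had 9961.8 CPM (22 cells) and 8251.5 CPM (55 cells), and fibroblast-like cells 8340.6 CPM (146 cells) and 3351.8 CPM (290 cells). C1q macrophage-like cells had 4219.2 and 4216.1 CPM. Luminal-like cells had 1593.8 and 767.2 CPM, and basal-like cells were lowest with 553.3 and 183.5 CPM. Endothelium-like cells therefore had a higher summed level than luminal-like cells in both sets, while fibroblast-like and epithelial cells differed between the sets.

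**Figure D1:**
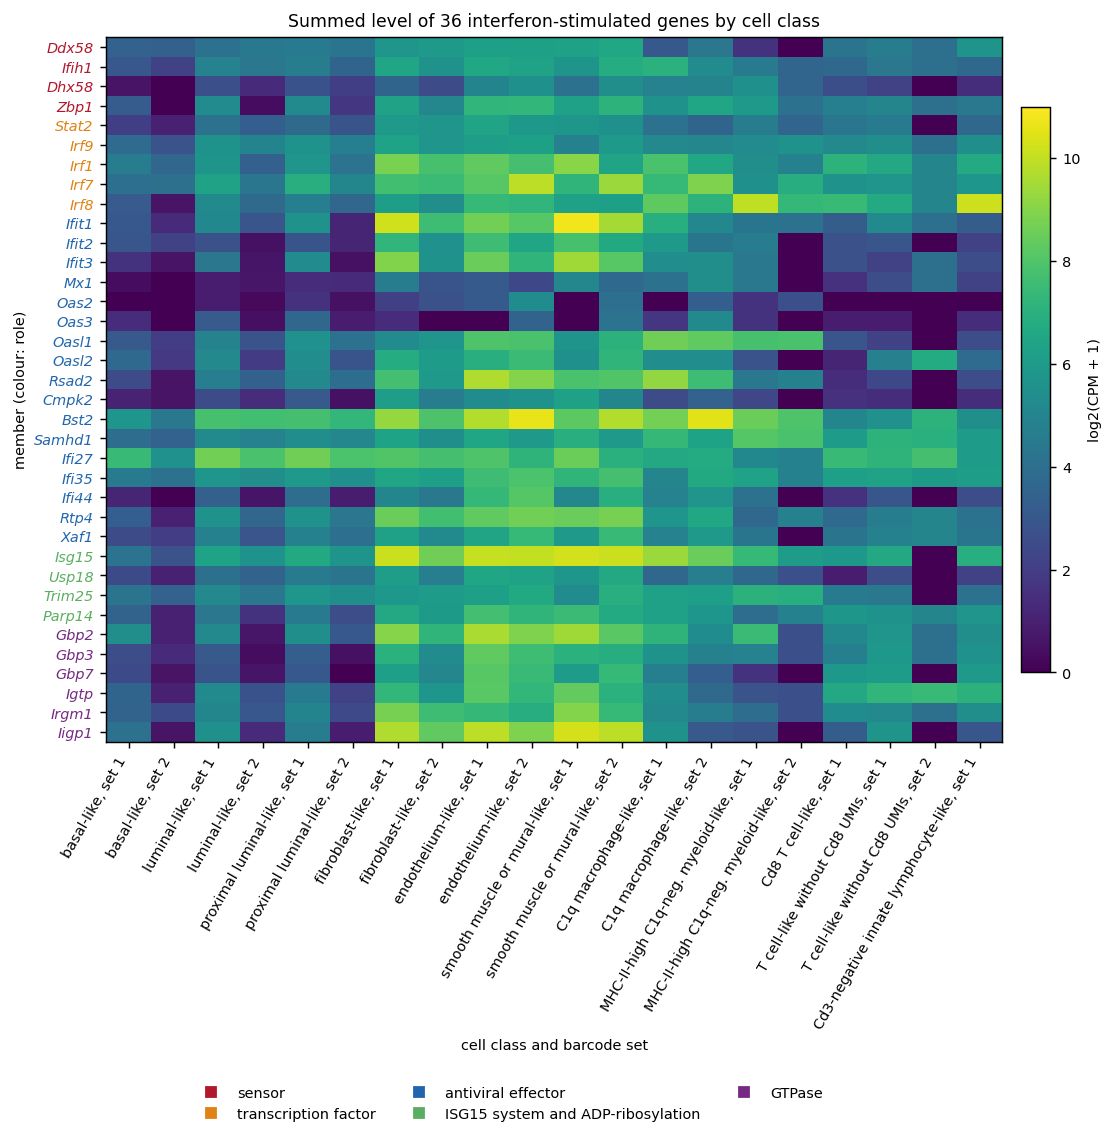
Level of each of the 36 measured members, as log2(CPM + 1) of UMIs summed over the cells of a class, with members in rows coloured by role and cell classes of barcode sets 1 and 2 in columns. The fibroblast-like, endothelium-like and mural-like columns are the brightest, and the set 2 columns of basal-like, luminal-like and proximal cells are darker than those of set 1.

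Taken gene by gene over the classes given levels, endothelium-like cells had the highest level of 15 members in set 1 and 16 in set 2, and smooth muscle or mural-like cells of 11 and 10. Isg15 was at 1051 CPM (interval 930.02 to 1182) in endothelium-like cells of set 1 and 1017 CPM (968.7 to 1067) in those of set 2, with overlapping intervals. In fibroblast-like cells Isg15 was at 1109.8 CPM (1052 to 1170.3) in set 1 and 389 CPM (357 to 423) in set 2. Ifit1, whose product binds viral RNA that lacks the host cap modification, was highest in mural-like cells with 1713 CPM (1527 to 1916) and 740.4 CPM (658 to 829.7). Iigp1, a GTPase that acts on the vacuoles of intracellular parasites, reached 966 CPM (851 to 1093) and 462 CPM (429.6 to 496) in endothelium-like cells, against 47.5 and 7.42 CPM in C1q macrophage-like cells.

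Not every member was lower in set 2. Bst2, the membrane protein tetherin that holds budding virus on the cell, was higher in set 2 in endothelium-like cells, with 844 CPM (737 to 963) in set 1 and 1587 CPM (1527 to 1649) in set 2. In C1q macrophage-like cells Bst2 had 418 CPM (359 to 485) in set 1 and 1433 CPM (1372 to 1495) in set 2. Irf7, the factor that amplifies type I interferon production, ran the same way, with 279 CPM (219 to 351) and 967 CPM (920.2 to 1016) in endothelium-like cells and 166 and 467 CPM in macrophage-like cells. Irf8, a factor of myeloid and dendritic cell development, had its own distribution. Among the classes given levels, it was highest in Cd3-negative innate lymphocyte-like cells of set 1, at 1159 CPM (1074 to 1248), and in MHC-II-high myeloid-like cells, at 973 CPM (888 to 1064) in set 1 and 159 CPM (106 to 228) in set 2. B cell-like cells (25 in set 1) were given no level. Samhd1, which depletes the nucleotide pool, and Trim25, a ubiquitin ligase acting on RIG-I, were likewise highest in MHC-II-high myeloid-like cells in both sets. Ifi27, a mitochondrial membrane protein, was the 1 member with its highest level in luminal-like cells of set 1 (399 CPM) and in proximal cells of set 2 (233 CPM).

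The ligands placed the cytokines in few cells. Ifng, encoding interferon-gamma, was found in Cd8 T cell-like cells of set 1 at 135 CPM (121 to 150.2), in Cd3-negative innate lymphocyte-like cells at 122 CPM (95.9 to 154), and in luminal-like cells at 0.185 CPM. Set 2 held 10 Cd8 T cell-like cells against 497 in set 1, and no Ifng UMI in luminal-like cells, which allows up to 0.0221 CPM. Ifnb1, encoding interferon-beta, had 4 UMIs in the C1q macrophage-like cells of set 1 (9.50 CPM) and 11 in those of set 2 (7.42 CPM). Ifnk, an epithelial type I interferon, was at 0.151 CPM in proximal luminal-like cells of set 1 and at 62.9 CPM (53.5 to 73.4) in set 2.

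Distinct members per cell were counted over 17 members of the type I core (Isg15, the Ifit and Oas genes, Rsad2, Irf7 and others). Each cell was first thinned to 3000 UMIs. The share of cells with several members rises with the level itself, so it cannot show whether members sat together in the same cells. From set 1 to set 2, the summed core level went from 4208.1 to 1388.4 CPM in fibroblast-like cells. It went from 692.1 to 124.7 CPM in EGFP-high luminal-like cells, and from 4328.1 to 4580.6 CPM in endothelium-like cells. Fibroblast-like cells with 3 or more distinct core members made up 76.3% (68.2 to 83.2) of set 1 and 28.5% (22.9 to 34.6) of set 2. In endothelium-like cells the shares were 78.8% (61.1 to 91.0) and 87.3% (80.5 to 92.4), so the sets overlapped there. Among luminal-like cells with high EGFP, which marks recombined cells, the share was 21.3% (17.6 to 25.4) in set 1 and 1.86% (1.57 to 2.20) in set 2. Luminal-like cells with low EGFP had a share of 10.6% (9.25 to 11.998), and 2 of 250 such cells in set 2 did (interval 0.0970% to 2.86%). Basal-like cells had 1.05% (0.600 to 1.70) in set 1 and 0 of 239 in set 2, which allows up to 1.53%. The thinning left out cells below 3000 UMIs, 4 of 445 EGFP-high and 12 of 2000 EGFP-low luminal-like cells of set 1, and 65 of 7365 and 13 of 263 in set 2.

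**Figure D2:**
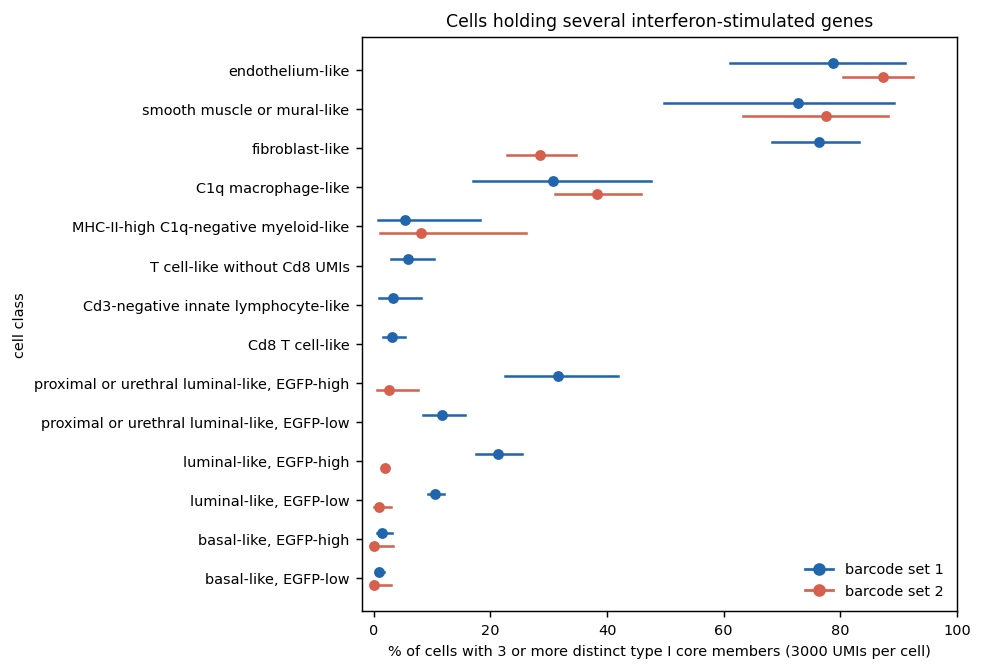
Share of cells (%, x axis) with 3 or more distinct type I core members among 3000 UMIs per cell, by cell class and EGFP level; points are shares, lines exact 95% intervals, blue barcode set 1 and red barcode set 2. Endothelium-like and mural-like shares lie above 70% in both sets, whereas the fibroblast-like share is 76.3% in set 1 and 28.5% in set 2.

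The members were also unevenly spread within the luminal-like class. A UMI of Ifit1 or Ifit3 was present in 186 of 2429 thinned luminal-like cells of set 1 (7.66%). In those 186 cells, 33 of the 34 other measured members were found in a larger share of cells than in the 2243 without, and for 30 of them the intervals did not overlap. When all genes of each cell were thinned to 3000 UMIs, and among genes found in 10 or more of the cells, 32 of 32 members had the larger share against 45.4% of 11029 genes, and 30 had an interval above that of the other cells against 2.33%. Msmb-high cells made up 24.2% of the 186 cells and 18.0% of the others, and Tgm4-high cells 7.53% and 17.7%; the part of the luminal make-up in these shares was not tested. Isg15 was in 45.2% (37.9 to 52.6) of the cells with an Ifit UMI and 12.9% (11.6 to 14.4) of those without. Rtp4, a transmembrane transporter protein with antiviral activity, was in 35.5% (28.6 to 42.8) against 9.32% (8.15 to 10.6). Iigp1 was in 25.8% (19.7 to 32.7) against 5.22% (4.33 to 6.22). In set 2 the Ifit-holding cells were fewer, 79 of 7550 (1.05%), and 31 of the 34 other members were in a larger share of them, 20 with intervals apart. Among genes found in 10 or more cells, 28 of 28 members had the larger share against 44.2% of 12413 genes, and 19 had an interval above against 1.73%. Basal-like cells of set 1 gave 21 of 34 members with a larger share in the 28 Ifit-holding cells, 3 with intervals apart. The share over all genes was not computed for basal-like cells. Rsad2, the radical-SAM enzyme viperin, was in 27.8% (18.4 to 39.1) of those 79 cells and 1.82% (1.53 to 2.15) of the rest, and Isg15 in 53.2% (41.6 to 64.5) against 7.01% (6.44 to 7.62). Both shares come from cells of equal depth, but cell size and free RNA were not separated from them.

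The members were lower in barcode set 2 than in set 1 within EGFP-high luminal-like cells. Among EGFP-high luminal-like cells (445 cells of set 1, 7365 of set 2), 28 of 36 members were at least 2-fold lower in set 2 and 0 were at least 2-fold higher, against 21.9% of all genes lower and 13.7% higher. The median log2 ratio was -2.52 over the members and -0.13 over all genes, and 35 of the 36 ratios were below 0. These are 2 libraries of unlike luminal make-up. The library, the tissue, the age of the animals and the kinds of luminal cell therefore cannot be told apart. Leukocyte markers summed to 5.56 CPM in set 1 and 1.78 CPM in set 2, T cell markers to 2.71 and 0.204 CPM, endothelial markers to 13.3 and 13.9 CPM, and fibroblast markers to 0.136 and 2.29 CPM; their part in the result was not tested. The GTPases had the lowest median, -4.68, with a range from -6.71 to -2.61. The antiviral effectors had a median of -2.50 with a range from -5.57 to -0.22, and the transcription factors -1.68 with a range from -2.90 to -0.85.

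Zbp1, a sensor of Z-form nucleic acid, differed most, with 50.1 CPM in set 1 and 0.290 CPM in set 2, a log2 ratio of -7.43 (-7.89 to -7.01). Gbp2 had 62.1 and 0.592 CPM (log2 ratio -6.71, -7.03 to -6.41), and Iigp1 67.7 and 1.49 CPM (-5.51, -5.72 to -5.30). Gbp3, the other guanylate-binding protein whose promoter is shown, had 13.2 and 0.290 CPM, and Ifit3 25.4 and 0.537 CPM. Isg15 differed less, with 143 CPM in set 1 and 48.8 CPM in set 2 (log2 ratio -1.56, -1.62 to -1.49), 2.94-fold lower. Irf7 was 5.86-fold lower (112 and 19.1 CPM).

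Of the 36 members, 8 stayed within 2-fold, among them 2 of the 4 sensors and tetherin. Ddx58 was at 18.2 CPM in set 1 and 21.2 CPM in set 2 (log2 ratio 0.22, 0.04 to 0.40), the 1 ratio above 0. Ifih1 was at 25.9 and 19.8 CPM (-0.39, -0.54 to -0.23), whereas Dhx58, the third RNA helicase of the list, was 4.63-fold lower at 7.45 and 1.61 CPM (-2.21, -2.54 to -1.88). Ifi35 was at 53.0 and 43.1 CPM (-0.30, -0.41 to -0.19). Bst2 was at 341 and 209 CPM (-0.70, -0.74 to -0.66). Samhd1, Irf9 and Trim25 had log2 ratios of -0.74, -0.85 and -0.90, and Mx1, a dynamin-like GTPase that blocks virus replication, rested on 9 and 85 UMIs (-0.22, -1.21 to 0.96). Ifi27 was at the 2-fold limit with 465 and 232 CPM. Among the 27 members with a promoter window, the median log2 ratio was -2.89 for the 14 with an ISRE core and -2.50 for the 13 without.

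**Figure D3:**
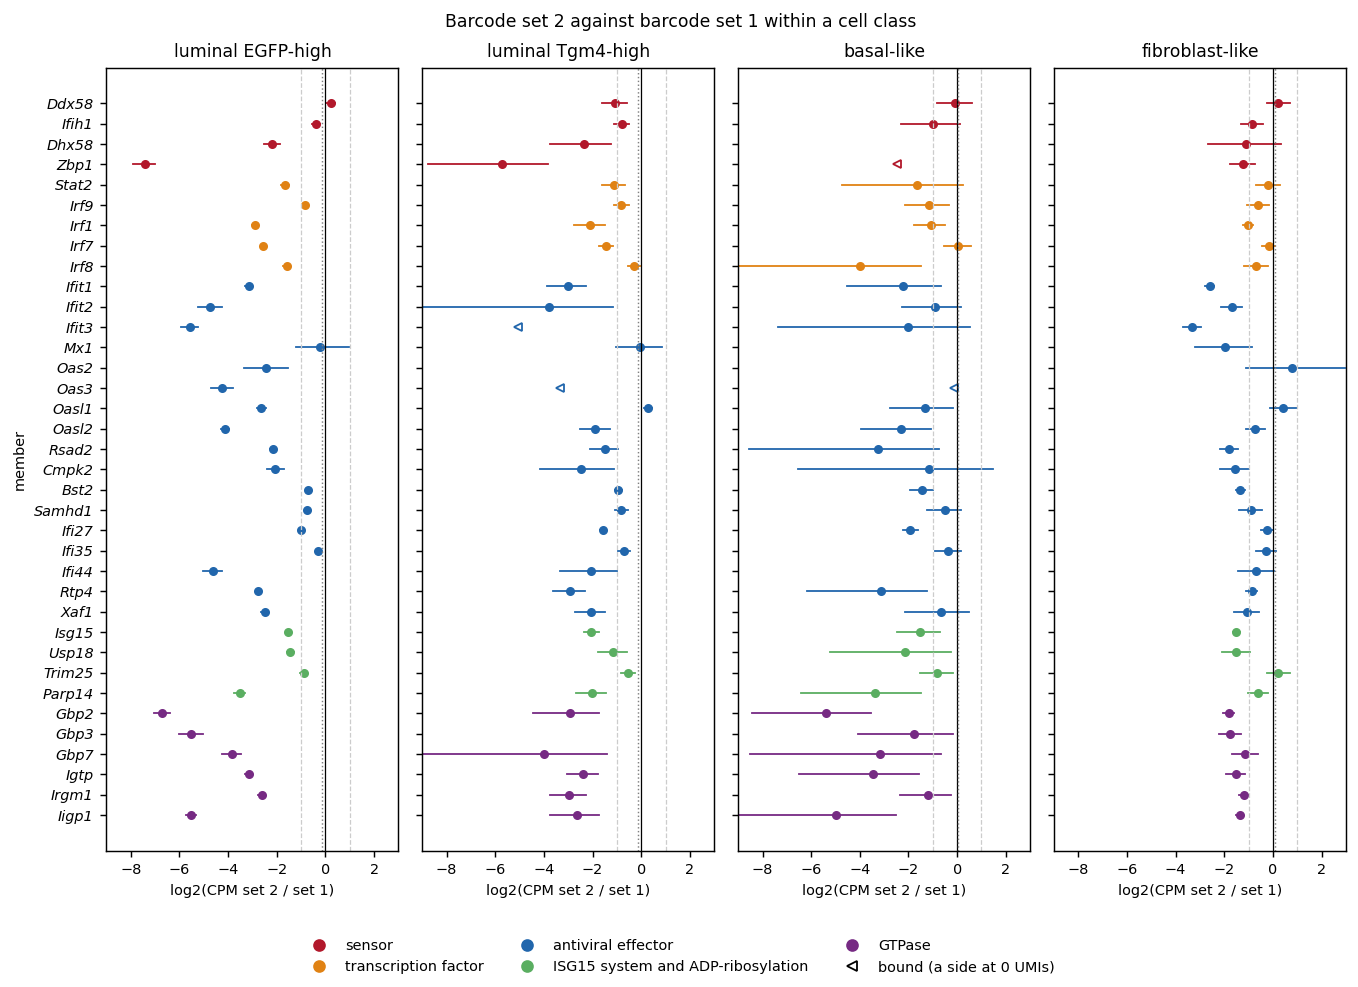
Log2 ratio of CPM in barcode set 2 over set 1 (x axis) for each member (rows, coloured by role) in 4 cell classes; points are ratios, lines exact 95% intervals, open triangles bounds where a side had 0 UMIs, dashed lines 2-fold and the dotted line the median of all genes. In luminal EGFP-high cells 35 of 36 points lie left of 0, with Ddx58 the exception.

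Lower levels in set 2 were also found in the other classes compared between the sets, at different sizes. Tgm4-high luminal-like cells, which carry the secretory transglutaminase 4, were the 1 luminal subgroup of 50 cells or more in both sets (418 and 285 cells) among those compared. In them 25 of 34 members were at least 2-fold lower in set 2 and 0 higher (11.3% and 6.52% of all genes), with a median of -2.05. Zbp1 had 175 UMIs in set 1 and 2 in set 2, a log2 ratio of -5.71 (-8.77 to -3.84). Ifit3 had 167 and 0 UMIs, which is 33.4-fold lower with the 0 set to 3 UMIs. A single cell of set 1 held 116 of those 167. Isg15 had 59.7 and 14.4 CPM (-2.06, -2.37 to -1.75). Oasl1, a negative regulator of Irf7 translation, was the exception with 57.0 and 68.7 CPM (0.27, 0.09 to 0.44).

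EGFP-low luminal-like cells had 26 of 36 members at least 2-fold lower and 2 higher (13.8% and 8.99% of all genes), with a median of -2.05. The 2 higher were Oasl1, with 29.8 CPM in set 1 and 65.4 CPM in set 2, and Mx1, with 0.921 and 1.96 CPM. Mx1 rested on 56 UMIs in set 1 and 10 in set 2, and its interval included 0 (log2 ratio 1.09, -0.05 to 2.07). Of the 263 EGFP-low cells of set 2, 169 (64.3%) were Tgm4-high cells already counted above, against 19.1% of the EGFP-low cells of set 1. The part of this make-up in the result was not tested. Proximal luminal-like cells had 24 of 36 members lower and 0 higher (10.2% and 10.8% of all genes), with a median of -1.57. There Ifit3 had 508 UMIs in set 1 and 1 in set 2 (-6.60, -11.91 to -4.12), whereas Bst2 (214 and 153 CPM), Ifi35 (58.2 and 45.5 CPM) and Usp18, the protease that removes ISG15 (22.7 and 17.8 CPM), were within 2-fold. Leukocyte markers summed to 7.94 and 2.37 CPM in these proximal cells and T cell markers to 3.71 CPM in set 1, with 4 of 4 at 0 in set 2. Basal-like cells had 23 of 32 members lower and 0 higher (7.73% and 9.94% of all genes), with a median of -1.59. Gbp2 was at 42.2 CPM in basal-like cells of set 1 and 0.9997 CPM in set 2 (-5.40, -8.45 to -3.54), Isg15 at 17.2 and 5.998 CPM, and Irf7 at 15.03 and 15.5 CPM (0.04, -0.54 to 0.58). With clusters in place of marker gates, the log2 ratio of Isg15 was 0.42. Leukocyte markers summed to 6.42 and 2.00 CPM in basal-like cells and T cell markers to 3.75 and 0.50 CPM; the part of these markers in the proximal and basal results was not tested.

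In fibroblast-like cells 19 of 35 members were at least 2-fold lower in set 2 and 0 higher (6.47% and 9.65% of all genes), with a median of -1.08 against 0.09 for all genes. Ifit3 and Ifit1 had the lowest ratios. Ifit3 was at 487 CPM in set 1 and 48.2 CPM in set 2 (log2 ratio -3.34, -3.72 to -2.98) and Ifit1 at 1166 and 192 CPM (-2.60, -2.79 to -2.41) while Mx1 was at -1.96 and Ifit2 at -1.69. The GTPases were closer than in luminal-like cells, with a median of -1.45, Iigp1 at 818 and 315 CPM and Gbp2 at 517 and 147 CPM. Irf7 was at 201 and 178 CPM (-0.17, -0.43 to 0.08), and the intervals of Ddx58 (0.22, -0.26 to 0.70), Trim25 (0.22, -0.24 to 0.68) and Oasl1 (0.42, -0.12 to 0.98) included 0. Zbp1, with the lowest ratio in luminal-like cells, was at -1.23 in fibroblast-like cells. Leukocyte markers here summed to 28.5 CPM in set 1 against 15.4 CPM in set 2, and T cell markers to 32.5 against 4.89 CPM; their part in the result was not tested. Whether the classes differ in these ratios was not tested.

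Other genes of the pathway followed the sets in the same direction. Of 73 listed non-members with a ratio in EGFP-high luminal-like cells, 45 were at least 2-fold lower in set 2 and 1 higher (21.9% and 13.7% of all genes), with a median of -1.93. Cxcl9, a chemokine induced by interferon-gamma, had 86.7 CPM in set 1 and 0.894 CPM in set 2 (-6.60, -6.86 to -6.35). Gbp8 had 36 and 0 UMIs, Tgtp1 29 and 1, Ifne 18 and 2, and Ifi47 206 and 24. In Tgm4-high cells Nlrc5, which switches on MHC class I genes, had 48 UMIs in set 1 and 1 in set 2, and Lgals3bp 655 and 23. In basal-like cells Cxcl9 had 1503 UMIs in set 1 and 0 in set 2, at least 48.7-fold lower, and the immunoproteasome subunits Psmb8 and Psmb9 were 17.5-fold and 19.7-fold lower. Ifnk ran the other way in proximal cells, with 2 UMIs in set 1 and 159 in set 2 (log2 ratio 8.70, 6.82 to 11.76).

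EGFP divides the epithelium into cells above and at or below the level that leukocyte-like cells show. In luminal-like cells of set 1, EGFP-high cells (445) against EGFP-low cells (2000) had 7 of 36 members at least 2-fold higher and 0 lower (6.96% and 8.1% of all genes). With clusters in place of gates 4 were higher. The member median was 0.57 and the median of all genes -0.13. The 7 were Usp18 at 28.9 and 12.6 CPM (log2 ratio 1.20, 1.03 to 1.37), Gbp3 at 13.2 and 5.89 CPM (1.17, 0.91 to 1.42), Isg15 at 143 and 67.6 CPM (1.09, 1.01 to 1.16), Gbp2, Rsad2, Ifit1 and Stat2. Rtp4 was just inside 2-fold with 79.7 and 40.8 CPM (0.97, 0.87 to 1.07). Oasl1 (26.5 and 29.8 CPM, -0.17) and Ifih1 (25.9 and 29.0 CPM, -0.16) had intervals below 0. Without the 1 cell of the set with the most core UMIs, Ifit1 was at 0.95 in place of 1.02 and Ifit3 at 0.21 in place of 0.49.

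The EGFP groups of set 1 differed in their luminal make-up. Msmb-high cells, which express microseminoprotein, made up 27.0% of EGFP-high and 16.4% of EGFP-low cells. Krt6a and Clu high cells made up 4.27% and 24.6%, and Tgm4-high cells 8.31% and 19.1%. Within Msmb-high cells (120 EGFP-high, 328 EGFP-low), 1 of 35 members was at least 2-fold higher and 1 lower (5.33% and 6.26% of all genes), and the median was -0.06, equal to that of all genes; Gbp2 there had a log2 ratio of -0.19. Outside the 3 subgroups (277 and 835 cells), 8 of 36 were higher and 0 lower (7.05% and 8.26% of all genes), with a median of 0.51. Luminal-like cells had passed the epithelial gate alone, so cells high in leukocyte, endothelial, fibroblast or mural markers were already left out. Low sums of those markers follow from this gate. Leukocyte markers summed to 5.56 CPM in EGFP-high and 7.76 CPM in EGFP-low cells, and macrophage markers to 9.62 and 4.75 CPM. Smooth muscle or mural markers summed to 7.32 and 16.5 CPM, and endothelial markers to 13.3 and 10.0 CPM. Fibroblast markers summed to 0.136 CPM with 4 of 6 at 0 and 0.493 CPM. Their part in the result was not tested.

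**Figure D4:**
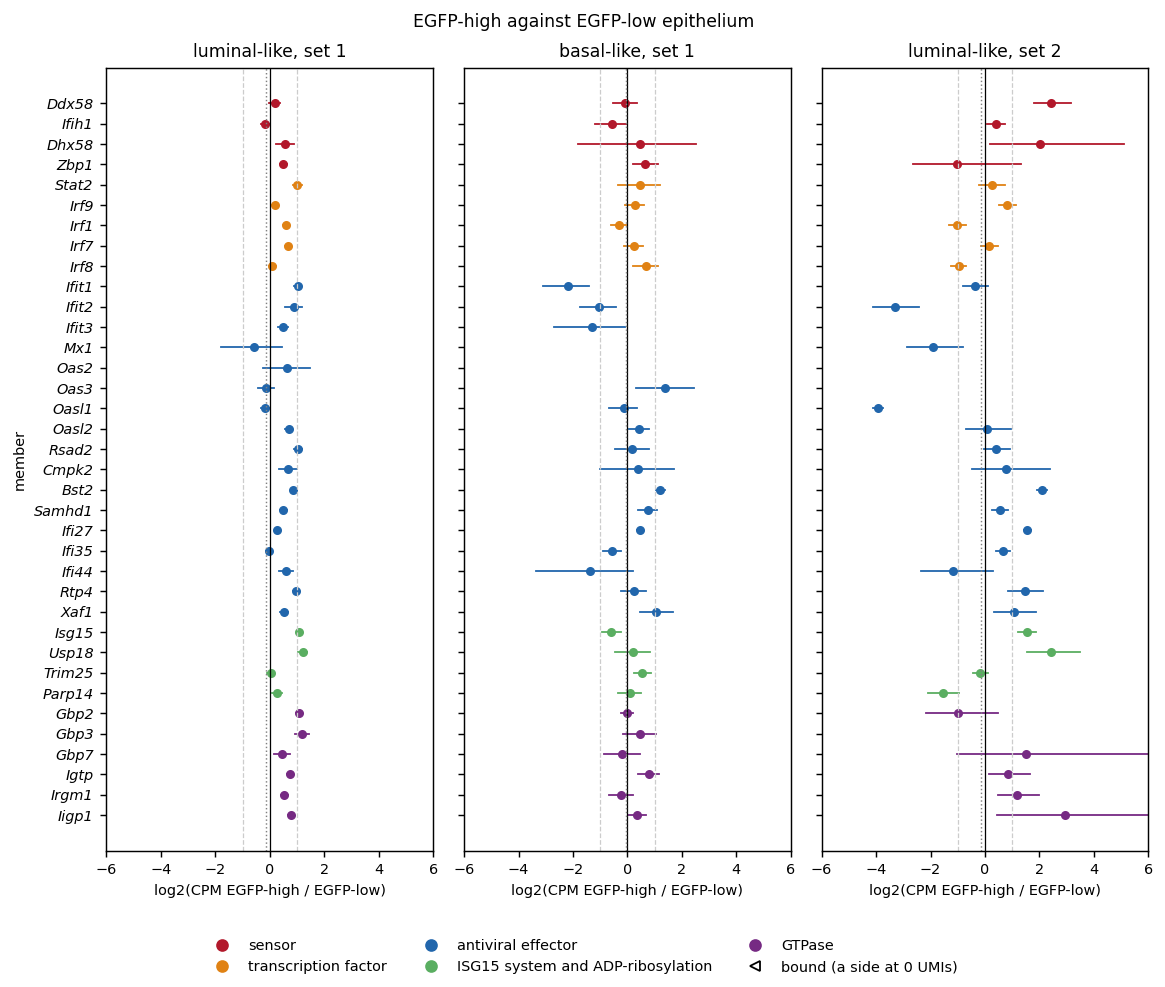
Log2 ratio of CPM in EGFP-high over EGFP-low cells (x axis) for each member (rows, coloured by role) in luminal-like and basal-like cells of set 1 and luminal-like cells of set 2; points are ratios, lines exact 95% intervals, dashed lines 2-fold, the dotted line the median of all genes. Luminal-like points of set 1 gather between 0 and 1.20, while Ifit1, Ifit2 and Ifit3 lie left of 0 in basal-like cells.

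In basal-like cells of set 1 (420 EGFP-high, 1125 EGFP-low), 3 of 34 members were at least 2-fold higher and 4 lower (5.32% and 6.2% of all genes). The lower 4 were the 3 Ifit genes and Ifi44. Ifit1 was at 2.07 CPM in EGFP-high and 9.49 CPM in EGFP-low cells (log2 ratio -2.19, -3.10 to -1.40), and Isg15 at 12.9 and 19.3 CPM (-0.59, -0.95 to -0.23). Bst2 was higher, with 88.0 and 38.0 CPM (1.21, 1.04 to 1.38), as were Oas3 on 19 and 15 UMIs (1.37, 0.32 to 2.45) and Xaf1, a pro-apoptotic protein (1.06, 0.46 to 1.66). B2m, the light chain of MHC class I, had 6018 and 2095 CPM (2.87-fold higher). Macrophage markers summed to 38.5 CPM in the EGFP-high and 1.16 CPM in the EGFP-low cells, smooth muscle or mural markers to 3.41 and 21.5 CPM; their part in the result was not tested. In set 2 only 10 members reached 10 UMIs over 117 and 131 basal-like cells, with 0 at least 2-fold higher and 2 lower (8.11% and 3.54% of all genes), and each of the 10 intervals included 0.

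Luminal-like cells of set 2 were nearly all EGFP-high (7365 of 7628), and 64.3% of the 263 EGFP-low cells were Tgm4-high, against 1.58% of the EGFP-high ones. Of 32 members, 11 were at least 2-fold higher in EGFP-high cells and 7 lower (14.2% and 21.7% of all genes), with a median of 0.48. Bst2 was at 209 CPM in EGFP-high and 49.1 CPM in EGFP-low cells (log2 ratio 2.09, 1.91 to 2.28), Ddx58 at 21.2 and 3.92 CPM (2.44, 1.81 to 3.15) and Ifi27 at 232 and 78.5 CPM (1.56, 1.42 to 1.71). Oasl1 was at 4.27 and 65.4 CPM (-3.94, -4.13 to -3.74), and Irf1 at 9.13 and 18.6 CPM (-1.03, -1.33 to -0.71). Iigp1 rested on 241 UMIs and 1 UMI. EGFP and the kind of luminal cell cannot be told apart in this comparison. Among the non-members in set 1 luminal-like cells, 10 of 75 were at least 2-fold higher and 6 lower (6.96% and 8.1% of all genes). The largest ratios were those of Irf5 (-1.88), Ifne (1.63), Cxcl9 (86.7 and 28.2 CPM, 1.62), Mndal (-1.30) and the inhibitor Socs3 (1.30). In set 2, 8 of 64 were higher and 18 lower (14.2% and 21.7% of all genes), led by Oas1g (3.96), Sp100 (-3.92), Oas1a (3.88), Psmb9 (-3.12) and Ly6a (2.46).

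The luminal subgroups of set 1 differed in their members. Msmb-high cells (448) had 5 of 36 members at least 2-fold higher than the other luminal-like cells (8.94% of all genes): Iigp1 at 126 and 20.01 CPM (log2 ratio 2.65, 2.55 to 2.76), Igtp at 79.4 and 23.0 CPM (1.79, 1.68 to 1.90), Stat2, Zbp1 and Xaf1. Oas3, which makes the 2-5A messenger, was the 1 member at least 2-fold lower (15.5% of all genes), at 3.02 and 9.31 CPM (-1.63, -2.06 to -1.22). With clusters in place of gates 3 members were higher and 4 lower. Among the GTPases, Gbp2 had a ratio of 0.04 and Gbp3 of -0.92. Krt6a and Clu high cells (511) had 13 lower (14.9% of all genes), led by Iigp1 at 6.20 and 55.6 CPM (-3.17, -3.47 to -2.88). Tgm4-high cells (418) had 14 lower (13.4% of all genes), led by Gbp3 (6 and 547 UMIs, -4.03, -5.48 to -2.90) and Gbp2 (6.71 and 40.9 CPM, -2.61). The share of cells with 3 or more core members was 19.0% (15.4 to 22.9) in Msmb-high, 6.26% (4.32 to 8.73) in Krt6a and Clu high and 4.61% (2.80 to 7.11) in Tgm4-high cells.

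Oasl1 and Mx1 were high in Tgm4-high cells in both sets. Oasl1 was at 57.0 CPM against 24.2 CPM in the other luminal-like cells of set 1 (1.24, 1.10 to 1.37) and at 68.7 against 3.46 CPM in set 2 (4.31, 4.13 to 4.49). Mx1 rested on 28 and 37 UMIs in set 1 (2.08, 1.32 to 2.83) and 16 and 79 in set 2 (2.24, 1.36 to 3.02). In set 2, Tgm4-high cells had 4 of 34 members higher and 13 lower (17.7% and 15.4% of all genes), with Isg15 at 14.4 against 49.3 CPM (-1.78, -2.08 to -1.49). No Tgm4-high cell of set 2 held 3 core members (0 of 274, which allows up to 1.34%).

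The other subgroups of set 2 differed less. Seminal-vesicle-gene-high cells (837) had 3 of 36 members at least 2-fold lower (7.21% of all genes), with Ifit2 at 0 UMIs against 71. Ifit3 in these cells had a log2 ratio of -1.71, and of -0.47 without the single cell described next. Alpha-defensin-high cells (1228) also had 3 lower (9.42% of all genes), and 1 lower without that single cell. The 3 included Ifit2 (1 UMI against 70) and Ifit1 (96 against 1000 UMIs, -1.08, -1.40 to -0.78). Without that cell Ifit1 was at -0.64, within 2-fold, and Ifit3 at 0.56 in place of -0.81. Cells with Mt4 and Gulo (1173) had 5 lower (10.2% of all genes), led by Zbp1 on 2 UMIs against 48. Proliferating cells (656) had 3 higher and 3 lower (5.57% and 6.47% of all genes), and the 3 higher were Ifit3, Ifit1 and Ifit2.

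Those 3 values rested on 1 cell. A set 2 luminal-like cell of 48985 UMIs, EGFP-high and both proliferating and Mt4 and Gulo positive, held 265 of the 1096 Ifit1 UMIs of all 7628 luminal-like cells of the set, 19 of the 71 Ifit2 UMIs and 48 of the 87 Ifit3 UMIs. It carried 490 UMIs of 10 core members, 0 of Ifnb1, and 7 UMIs over 21 markers of other cell types. With it, proliferating cells had log2 ratios of 3.06 for Ifit3, 1.30 for Ifit1 and 1.31 for Ifit2. Without it the ratios were -1.02, -1.17 and -2.08, and 0 members were higher and 8 lower. The share of all genes lower without this cell is not given here, so the 8 cannot be set beside it. Leaving it and the matching cell of set 1 out moved the set 2 over set 1 ratios of EGFP-high luminal-like cells to -6.45 for Ifit3, -3.50 for Ifit1 and -5.25 for Ifit2. Mt4 and Gulo cells without it had Ifit3 at 0.61 in place of 3.14. The set 1 cell with the most core UMIs held 413, from 16 core members.

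**Figure D5:**
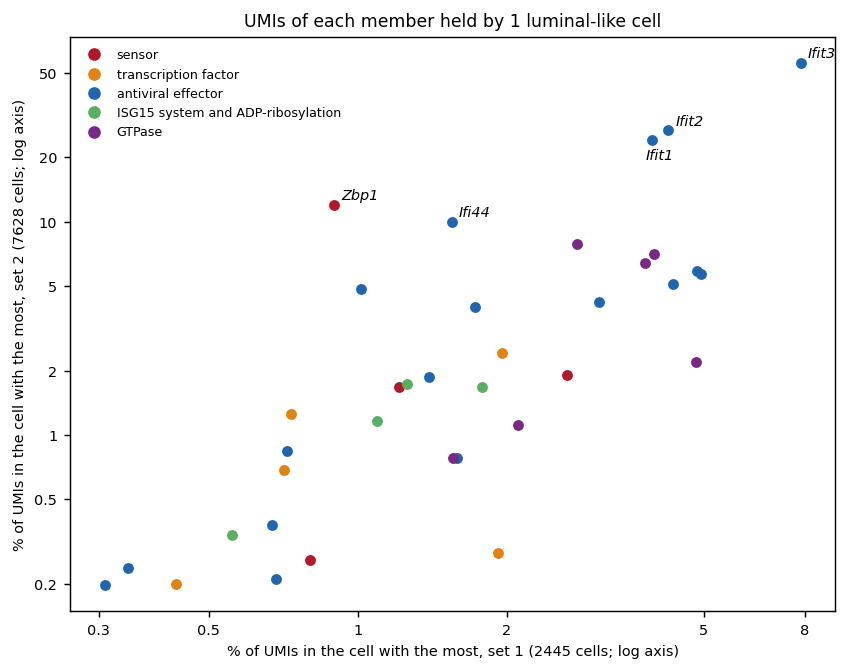
For each member (points, coloured by role), the percentage of its luminal-like UMIs that sat in the single cell holding the most of them, in set 1 (x axis) and set 2 (y axis), both axes logarithmic. Ifit3 is at 7.85% in set 1 and 55.2% in set 2, with Ifit2 at 26.8% and Ifit1 at 24.2% of set 2.

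Ifit3 had its UMIs in 32 of 7628 luminal-like cells of set 2 and 1 cell held more UMIs than the rest together, whereas in set 1 it was found in 318 of 2445 cells and 22 of them held 50% of its UMIs. Iigp1 was spread over 446 cells in set 1, 45 of which held 50%, and over 136 cells in set 2. Zbp1 was found in 41 luminal-like cells of set 2. Members of the Ifit, Oas, Gbp and Irg families have close paralogues in the mouse genome, and reads shared by paralogues are not counted by Cell Ranger, so their levels may be low by an unknown amount.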

How the data were processed

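Single cells of 2 prostate libraries (PIN and PCa, 1 each) were sequenced by 10x Chromium chemistry, and the authors counted UMIs with Cell Ranger 3.1.0 on mm10, per the labels and the methods of the study. The deposited values are natural logs, ln(1 + x), where x is the gene's UMI number scaled so that each cell sums to 10000. These were converted back to UMIs, and 100% of the values above 0 came out whole within a relative tolerance of 0.001.

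Doublets were scored with Scrublet in scanpy 1.11.5 (score of 0.25 or more left out; its automatic limit called 0 cells). Cells were gated on marker genes at limits set after the scores were seen; graph clusters built without the pathway genes (leidenalg 0.10.2) were an alternative. EGFP-high was above the 95th percentile of leukocyte-like cells of the set, 3.05 and 12.1 EGFP UMIs per 10000. Subgroup limits were per 10000 UMIs: Msmb 100, Tgm4 50, Krt6a 10 with Clu 50, defensins 10, seminal vesicle genes 20, and Mt4 with Gulo 3.

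UMIs were summed per class and expressed as CPM with exact Poisson intervals. Ratios, with exact conditional binomial intervals (scipy 1.17.1), needed 10 UMIs over both sides and 50 cells on each; a call was 2-fold or more, and a side at 0 was set to 3 UMIs as a bound. The ratio step was tested on simulated data. Shares used cells thinned to 3000 UMIs with exact Clopper-Pearson intervals.

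The members and lists were chosen with earlier results of these data known. Members named were the 10 highest and the 10 lowest ratios per comparison with 20 or more UMIs, and those named by role; non-members were the 5 with the largest ratios with 20 or more UMIs, plus Ifnb1 and Ifng. Ifnk levels, Psmb8, and the genes of the cells with an Ifit UMI were named after their values were seen. Mx2 was not analysed here, and 1 gene that the rule names is not reported here.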

Additional observations from a re-analysis of the deposited data

Results flagged for a closer look

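Ratios of EGFP-high over EGFP-low cells pointed in opposite directions in 2 classes of set 1 for 5 members, with intervals on opposite sides of 0. A ratio in both classes was available for 34 members. The difference between the log2 ratio in luminal-like and in basal-like cells was 3.22 for Ifit1 (1.02 and -2.19), 1.94 for Ifit2 (0.88 and -1.06), 1.78 for Ifit3 (0.49 and -1.29), 1.67 for Isg15 (1.09 and -0.59) and 0.90 for Irf1 (0.58 and -0.32). In basal-like cells Ifit1 rested on 14 and 131 UMIs, Ifit2 on 26 and 111, and Ifit3 on 7 and 35. Without the set 1 cell with the most core UMIs, luminal Ifit3 was at 0.21 in place of 0.49. The EGFP groups also differ in luminal make-up. With 1 library these differences were not tested, and the share of all genes with opposite directions is not given here.

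The EGFP ratios of luminal-like cells also pointed in opposite directions in the 2 barcode sets for 4 of the 32 members with a ratio in both. The log2 ratio of set 1 minus that of set 2 was 4.20 for Ifit2 (0.88 and -3.32), 1.81 for Parp14 (0.26 and -1.55), 1.61 for Irf1 (0.58 and -1.03) and -0.56 for Ifih1 (-0.16 and 0.39). Ifit2 in set 2 rested on 54 UMIs in EGFP-high and 17 UMIs in EGFP-low cells. The share of all genes with opposite directions is not given here. The differences between the sets were not tested, and the EGFP-low cells of the sets differ in their luminal subgroups.

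Cells that passed no lineage gate entered no comparison, and the members were present in them. Their summed level was 3169.2 CPM in the 76 such cells of set 1 (1610 UMIs) and 954.0 CPM in the 301 such cells of set 2 (2712 UMIs).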

How the results depend on the processing

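Of 240 recomputed counts and shares, 197 stayed within 1.5 times the value given (or within its interval) and 43 moved; of 1783 recomputed single values, 1583 were the same, 195 moved and 5 turned in sign. With clusters in place of gates, the members at least 2-fold higher in EGFP-high cells numbered 4 in luminal-like cells of set 1, 7 in those of set 2 and 3 in basal-like cells of set 2; those lower in basal-like cells of set 1 numbered 1, those higher in EGFP-low luminal-like cells of set 2 against set 1 numbered 1 and those higher and lower in Msmb-high cells 3 and 4. Isg15 in basal-like cells turned to 0.42 for set 2 over set 1, and 21.5% of set 2 fibroblast-like cells held 3 core members. In basal-like cells of set 2, the EGFP comparison gave 1 member higher and 1 lower with doublets kept and also with every cell weighing the same, 2 higher and 6 lower with no UMI limit, and 0 lower with a limit of 50 UMIs; that last limit gave 2 lower in set 1. With every cell weighing the same, 1 member was lower in EGFP-high luminal-like cells of set 1, 0 were higher in EGFP-low luminal-like cells and 1 in proximal cells of set 2 against set 1, 5 were lower in defensin-high cells, 4 in Msmb-high cells, and 1 higher and 1 lower in proliferating cells. The following were chosen after seeing the data. Without 1 luminal-like cell of each set, 1 member was lower in defensin-high cells and 0 higher and 8 lower in proliferating cells, where Ifit3 turned to -1.02, Ifit1 to -1.17 and Ifit2 to -2.08. Within Msmb-high cells the EGFP comparison of set 1 gave 1 higher and 1 lower, and Gbp2 turned to -0.19. Apart from those within Msmb-high cells, shares of all genes under these settings are not given here. The cause of these changes was not tested, except that the 1 cell left out held the Ifit UMIs named.

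The share with several core members follows its definition. With 2, with 4 or more members, and with 3 after thinning to 6000 UMIs, it was 34.0%, 12.02% and 34.4% in EGFP-high luminal-like cells of set 1, 22.6%, 4.73% and 21.5% in EGFP-low ones, 4.64%, 0.959% and 3.76% in EGFP-high ones of set 2, 87.4%, 68.1% and 86.8% in fibroblast-like cells of set 1, and 43.8%, 20.7% and 44.1% in those of set 2. No paired analysis was possible because 1 library stood for each tissue, and for the same reason no replicate could be left out. Depth limits the basal-like cells of set 2, where 20 of 36 members had 3 UMIs or fewer.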
